A study of Mus musculus with 6 samples.

Results

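Back skin of C57/BL mice was compared between cyclosporin A and ethanol treatment at day 4, on the 2 dual-colour arrays of that day among the 6 of the series. The arrays were chosen by their titles, which name cyclosporin A and day 4 and number them 1 and 2. On each array the cyclosporin A sample was labelled with Cy5 and an ethanol sample of the same day with Cy3, and all genes on non-control spots were used. The other 4 arrays hold the same comparison at days 2 and 7, with 2 arrays each. All groups share strain and tissue. The labels give neither the dose, the route beyond application, the age or sex of the mice, nor which mice each sample came from. The series' design text calls the samples biological replicates, but no animals are named, so p-values here rest on the spread between samples, which may be technical.

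Cyclosporin A binds cyclophilins, and the complex blocks calcineurin, the calcium-dependent phosphatase that sends NFAT transcription factors to the nucleus. In T cells this stops cytokine transcription, which is the basis of the drug's use against graft rejection. In skin it is known for excess hair growth as a side effect. The hair follicle cycles between rest and growth. In growth, matrix cells under the control of the dermal papilla divide and form the inner root sheath and the hair shaft, and melanocytes pass pigment to the shaft.

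Of all probes, 68.8% and 68.1% were well above background in the cyclosporin A channel of the day 4 arrays, and 52.9% and 56.5% in the ethanol channel, with no saturated spot (0). The number of arrays limits the precision. Skin genes were bright in both channels: the keratin Krt5 had normalized intensities of 100880 and 130570 with cyclosporin A, against 115770 and 106050 with ethanol, and the fat hormone Adipoq had 30347 and 22218, against 21731 and 31100. Intensities are given per array after background correction and normalization, in order of array 1 and array 2. Channels were apart, or did not overlap, where both cyclosporin A values lay on the same side of both ethanol values. This ignores the pairing of channels within an array, and its share over all genes was not counted. No array swapped the dyes, so a gene's own dye effect and the treatment cannot be told apart within a day. The spread was estimated over all 6 arrays with limma, and the adjusted p is Benjamini-Hochberg over 22751 genes.

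At day 4 the keratins Krt71 and Krt25 of the inner root sheath, melanocyte genes and cell division genes stood higher in cyclosporin A skin than in ethanol skin. Interferon-responsive genes stood lower, as did muscle genes and fibroblast and collagen genes except when the arrays were median-centred. Only Krt71 passed the test, which makes 1 higher gene (0.0044% of those tested) and 0 lower genes (0%). At an unadjusted p under 0.05, 2397 genes (10.5%) were higher and 1007 (4.43%) lower, and 1707 genes had a limma adjusted p under 0.25. Both arrays passed 1.5-fold in the same direction for 230 higher genes (1.01% of 22724 measured on both arrays) and for 75 lower genes (0.33%). Across genes, which are not independent replicates, the ratios of the 2 arrays had a Pearson correlation of 0.427 and a Spearman correlation of 0.425. Arrays of other days were as close to array 1. Its Pearson correlation was 0.519 with day 7 array 2 and 0.445 with day 2 array 2. For array 2 the highest value with another day was 0.410, with day 7 array 2. The 2 arrays of day 2 had a Pearson correlation of 0.0074, and those of day 7 had 0.588.

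**Figure D1:**
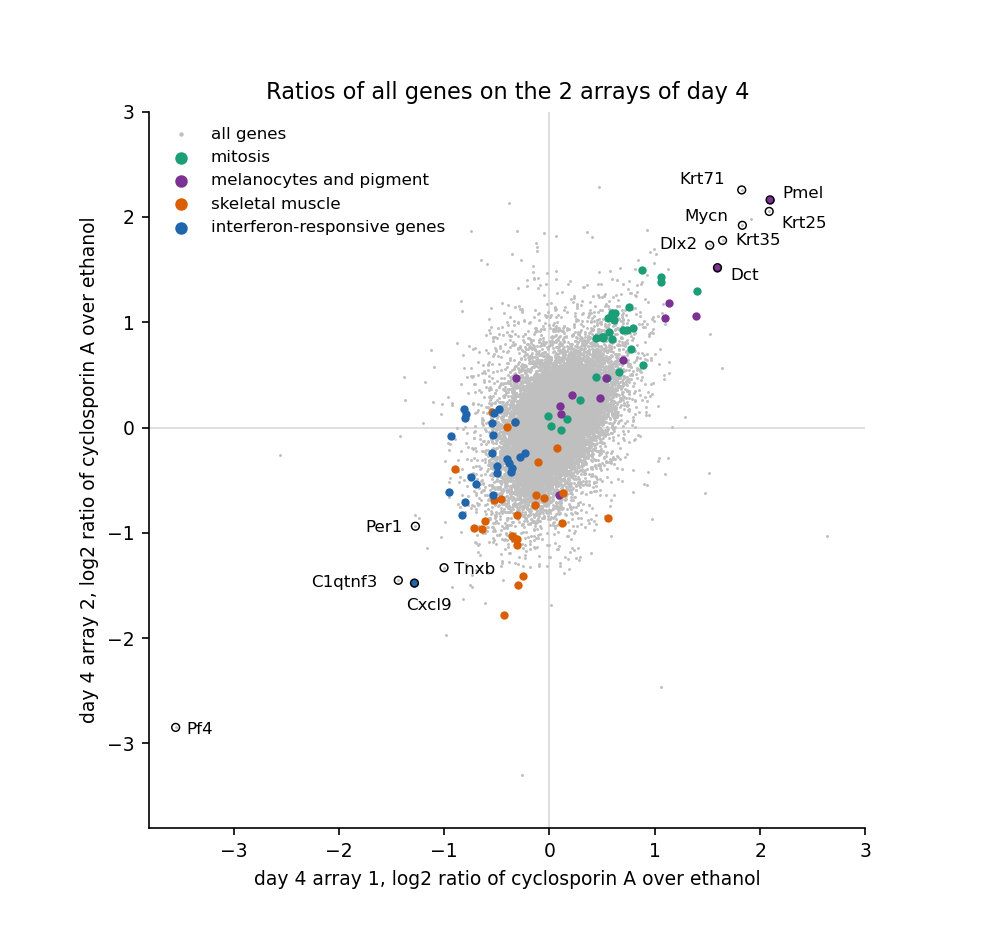
Log2 ratio of cyclosporin A over ethanol of each gene on day 4 array 1 (horizontal) and array 2 (vertical), with all genes in grey, members of 4 lists in colour and 12 named genes circled; 22722 genes are drawn and 2 lie outside the axes. Krt71, Krt25 and Pmel sit near or above 2 on both arrays, mitosis genes lie mostly above 0 on both and muscle genes mostly below 0, the muscle list above all genes under median centring.

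The inner root sheath keratins carried the only gene that passed the test. Krt71, a type II keratin of the inner root sheath, had intensities of 559 and 523 with cyclosporin A, against 158 and 110 with ethanol. The groups did not overlap, and the ethanol channel was well above background on 1 of 2 arrays. Krt71 rose 4.11-fold in cyclosporin A skin (mean log2 ratio 2.04, SE 0.14, n = 2 arrays, limma adjusted p = 0.0429). Its type I partner Krt25 had 455 and 423 with cyclosporin A, against 107 and 102 with ethanol, where it was not well above background on either array. For genes at background on both ethanol arrays the fold is given as "at least", taken against the dimmest signal well above background where that is higher. Elsewhere, as for Krt25, it is the fold of the mean ratio itself. This wording concerns the background only and allows nothing for the spread between arrays. At day 4 such genes could pass the filter only through the cyclosporin A channel, the channel in which they stood higher. Their higher values are therefore partly a matter of selection. Krt25 was at least 4.20-fold higher with cyclosporin A (log2 ratios 2.09 and 2.05, limma adjusted p = 0.179) and did not pass the test. Krt27, another type I sheath keratin, had 284 and 256 with cyclosporin A, against 195 and 141 with ethanol (mean log2 ratio 0.70, SE 0.20, limma adjusted p = 0.223).

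Of 14 genes on the inner root sheath list 9 were tested; 1 rose, 3 were higher at an unadjusted p under 0.05 (10.5% of all genes were), and 7 were above 0 on both arrays (38.6% of all genes were). The list median was 0.28, against 0.04 over all genes tested. Krt26, Padi3, which citrullinates sheath and shaft proteins, and the trichohyalin-like Tchhl1 stood at 0.13, 0.03 and 0.07, so the higher values lay in a few members. Of the 3 members well above background in Cy5 and Cy3 on every array, 0 were higher at an unadjusted p under 0.05. With 1 array left for a day, that array was assumed to vary like the other days. The call of Krt71 depends on the arrays in the fit: the limma adjusted p was 0.142 without either day 7 array, 0.150 without array 1 and 0.700 without array 2 of day 4, and 0.0474 without either day 2 array. Without either day 2 array, Krt35, Pmel and 1 probe with no gene name were also under 0.05.

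The promoters of the 3 sheath keratins are shown because Krt71 was the gene that passed the test and Krt25 and Krt27 are type I keratins of the same sheath. They run from 250 bases before to 50 after the gene's start, are credited to RefSeq (build GRCm38.p6) and are printed 5′ to 3′ on the gene's strand. Krt71 lies on the minus strand at chr15:101743048-101743347, Krt25 on the minus strand at chr11:99322902-99323201 and Krt27 on the minus strand at chr11:99351069-99351368. Capitals mark TATAAA and AGATAA, the letters of a TATA box and of a GATA factor motif, searched on both strands.
Krt71: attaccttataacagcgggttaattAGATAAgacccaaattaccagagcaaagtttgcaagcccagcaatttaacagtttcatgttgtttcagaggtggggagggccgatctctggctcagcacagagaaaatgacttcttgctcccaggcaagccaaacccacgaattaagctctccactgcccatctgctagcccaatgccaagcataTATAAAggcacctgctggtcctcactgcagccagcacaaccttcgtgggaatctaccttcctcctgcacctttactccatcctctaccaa
Krt25: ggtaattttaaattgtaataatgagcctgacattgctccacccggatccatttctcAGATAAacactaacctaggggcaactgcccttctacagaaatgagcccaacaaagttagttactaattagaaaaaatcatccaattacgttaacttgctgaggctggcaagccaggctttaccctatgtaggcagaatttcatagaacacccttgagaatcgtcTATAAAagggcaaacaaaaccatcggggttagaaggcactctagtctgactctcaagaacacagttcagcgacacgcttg
Krt27: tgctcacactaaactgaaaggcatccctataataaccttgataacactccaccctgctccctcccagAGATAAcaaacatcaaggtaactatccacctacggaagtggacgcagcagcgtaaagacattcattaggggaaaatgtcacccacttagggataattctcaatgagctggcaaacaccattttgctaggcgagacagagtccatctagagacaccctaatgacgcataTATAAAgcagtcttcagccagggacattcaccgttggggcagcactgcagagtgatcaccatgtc
Counted from the gene's start, TATAAA began at -40 in Krt71, -30 in Krt25 and -15 in Krt27, and it was in 13.6% of all promoter windows of that length. AGATAA began at -225, -194 and -183 in the same order and was in 11.2% of all windows. Over the sheath list, 4 of 9 tested members had TATAAA and 3 of 9 had AGATAA. A match is a description of these letters and not a binding site.

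Shaft keratins were mostly near 0 at day 4, apart from Krt35 and Krt33a. Krt35, a type I hair keratin of the early matrix and cuticle, had 701 and 792 with cyclosporin A, against 224 and 231 with ethanol (3.27-fold higher, mean log2 ratio 1.71, SE 0.15, limma adjusted p = 0.129). Krt33a, a cortex keratin, had 166 and 164 with cyclosporin A, against 86.0 and 88.4 with ethanol, at least 1.89-fold higher (limma adjusted p = 0.220). The channels of Krt35 did not overlap, Krt33a was not well above background on either ethanol array, and neither gene passed the test. Of 19 listed shaft genes 10 were tested, and 2 were higher at an unadjusted p under 0.05 (10.5% of all genes were). Krt31, Krt86, Krt87 and Prr9 stood between -0.12 and -0.03. Of these, Krt31 and Krt87 were not well above background in either channel. The list median was -0.04. The connexin Gjb2, a gap junction protein of the follicle and activated epidermis, had 717 and 752 with cyclosporin A, against 384 and 465 with ethanol (mean log2 ratio 0.80, SE 0.12, limma adjusted p = 0.179).

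**Figure D2:**
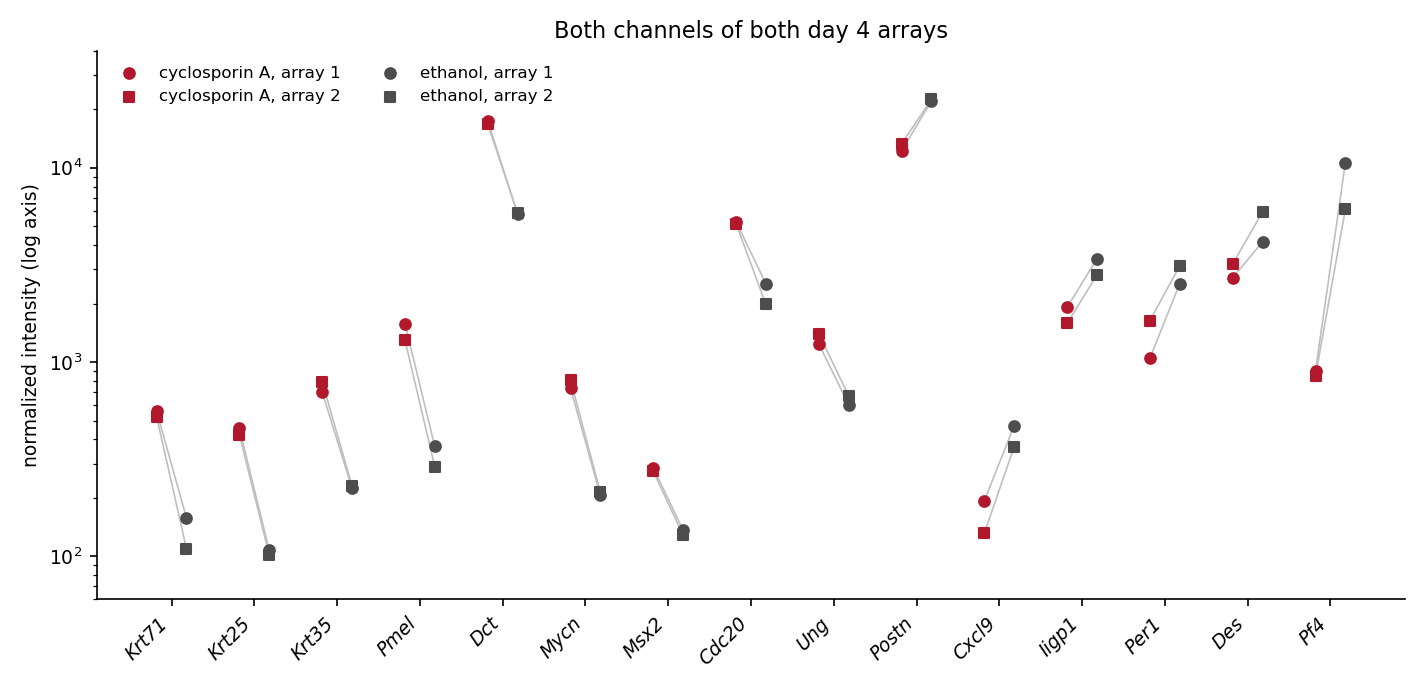
Normalized intensity (log axis) of 15 genes in the cyclosporin A channel (red, left) and the ethanol channel (grey, right) of array 1 (circles) and array 2 (squares), with a line joining the channels of one array. For Krt71 the cyclosporin A values are 559 and 523 and the ethanol values 158 and 110; for Pf4 they are 901 and 847 against 10553 and 6098.

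Among the transcription factors of the follicle, Msx2, Dlx2, Lef1 and Mycn were higher with cyclosporin A on both arrays without passing the test, while Gata3, a factor of the inner root sheath, was at -0.10 and -0.36. Msx2, a homeobox factor of matrix and shaft precursors, had 285 and 274 with cyclosporin A, against 136 and 129 with ethanol (2.11-fold, mean log2 ratio 1.08, SE 0.14, limma adjusted p = 0.179). Dlx2, another homeobox factor, had 248 and 237 with cyclosporin A, against 86.3 and 71.3 with ethanol, and was at least 2.83-fold higher. Msx2 showed no overlap between the channels, and Dlx2 was not well above background on either ethanol array. Lef1, which carries the Wnt signal into the nucleus, had 402 and 378 with cyclosporin A, against 235 and 196 with ethanol (mean log2 ratio 0.86, SE 0.22). Mycn, a proto-oncogene of proliferating matrix cells, had 735 and 810 with cyclosporin A, against 206 and 214 with ethanol, 3.67-fold higher. A dimmer probe of Mycn stood at 0.27, and the mean of both probes gave 1.07.

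Among signals and receptors, Shh, the ligand that drives matrix growth, had 157 and 175 with cyclosporin A, against 85.7 and 88.6 with ethanol, at least 1.90-fold higher. Shh was not well above background on either ethanol array. The pathway targets Gli1 and Ptch1 had mean log2 ratios of 0.38 and 0.23. The ectodysplasin receptor Edar had 312 and 279 with cyclosporin A, against 209 and 184 with ethanol (mean log2 ratio 0.59, SE 0.12). Bmp2 and Bmp4, signals that hold follicles at rest or guide differentiation, stood at -0.38 and -0.24. Of 31 tested matrix and growth regulators 0 passed the test, 9 were higher and 1 lower by an unadjusted p under 0.05, against 10.5% and 4.43% of all genes, and the list median was 0.24. Of the 16 members well above background in Cy5 and Cy3 on every array 0 were higher by that p. Of the 31, 8 were below 0 on both arrays (27.5% of all genes were).

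Wnt pathway targets had a median of 0.36 over 15 tested genes. By an unadjusted p under 0.05, 6 were higher (10.5% of all genes were) and 0 lower. Sp5, a direct Wnt target, had 223 and 259 with cyclosporin A, against 148 and 120 with ethanol (mean log2 ratio 0.86, SE 0.18, limma adjusted p = 0.179). Ccnd1, the G1 cyclin, and Lgr5, a stem cell receptor for R-spondins, stood at 0.41 and 0.50, while Myc and the beta-catenin gene Ctnnb1 stood at -0.01 and -0.19. Without array 2 of day 4, 1 Wnt target was higher at an unadjusted p under 0.05.

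Dermal papilla genes had a median of 0.29 over 22 tested genes. By an unadjusted p under 0.05, 9 of them were higher (10.5% of all genes were) and 0 lower. Alpl, the alkaline phosphatase by which the papilla is stained, had 598 and 616 with cyclosporin A, against 353 and 254 with ethanol (2.03-fold, mean log2 ratio 1.02, SE 0.26, limma adjusted p = 0.198). Ndp, the secreted ligand norrin, had 275 and 228 with cyclosporin A, against 147 and 145 with ethanol (mean log2 ratio 0.78, SE 0.14). The channels of both genes did not overlap. Inhba, an activin subunit, stood at 0.57, and Igfbp3, Bmp4 and Fgf7 at -0.42, -0.24 and -0.19. The count of 9 was 5 without array 1 and 2 without array 2 of day 4, and 2 of 10 with probes well above background in Cy5 and Cy3 on every array.

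Inhibitors of follicle growth showed no common direction, with a median of 0.04 over 21 tested genes. By an unadjusted p under 0.05, 3 were higher and 2 lower, against 10.5% and 4.43% of all genes. Id1, a BMP target, and Sostdc1, a Wnt and BMP antagonist, both stood at 0.64, and the activin antagonist Fst at -0.47. Bulge and hair germ genes had a median of 0.02 over 22 tested genes. The stem cell marker Cd34 stood at 0.10, and the bulge gene Angptl7 had 290 and 218 with cyclosporin A, against 574 and 857 with ethanol (mean log2 ratio -1.48, SE 0.33, limma adjusted p = 0.179).

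Pigment genes stood higher in cyclosporin A skin, with most of the tested members above 0 on both arrays. Pmel, the fibril protein of the pigment granule, had 1574 and 1296 with cyclosporin A, against 368 and 290 with ethanol (4.37-fold, mean log2 ratio 2.13, SE 0.24, limma adjusted p = 0.179). Dct, the dopachrome tautomerase of melanin synthesis, had 17474 and 16744 with cyclosporin A, against 5783 and 5848 with ethanol (2.94-fold, mean log2 ratio 1.56, SE 0.28, limma adjusted p = 0.179). Tyrp1, the enzyme that follows Dct, had 406 and 320 with cyclosporin A, against 155 and 153 with ethanol (2.34-fold, mean log2 ratio 1.22, SE 0.20). None of these genes overlapped between the channels, and none passed the test.

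Transporters of the pigment granule were also higher. Slc45a2 had 376 and 374 with cyclosporin A, against 175 and 182 with ethanol (2.10-fold), and Slc24a5 was at least 2.24-fold higher, with 250 and 236 against 114 and 104. Mc1r, the melanocortin receptor, had 131 and 113 with cyclosporin A, against 80.5 and 72.8 with ethanol, at least 1.47-fold higher. The regulator Mitf, the receptor Kit and its ligand Kitl stood at 0.08, 0.12 and 0.26. Of 13 tested genes 7 were higher and 0 lower by an unadjusted p under 0.05 (10.5% of all genes were higher). On both arrays, 11 were above 0 and 6 passed 1.5-fold, against 38.6% and 1.01% of all genes. With probes well above background in Cy5 and Cy3 on every array, 2 of 7 were higher by that p. The list median was 0.50, with 0.53 on array 1 and 0.47 on array 2. In bulk skin, more cells of a type and more RNA per cell cannot be told apart.

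The promoters of Dct and Tyrp1 are shown for the pigment list, with capitals on CATGTG, the letters of the motif that the melanocyte factor MITF is known to bind. Dct lies on the minus strand at chr14:118052197-118052496 and Tyrp1 on the plus strand at chr4:80833963-80834262, both of build GRCm38.p6 from RefSeq.
Dct: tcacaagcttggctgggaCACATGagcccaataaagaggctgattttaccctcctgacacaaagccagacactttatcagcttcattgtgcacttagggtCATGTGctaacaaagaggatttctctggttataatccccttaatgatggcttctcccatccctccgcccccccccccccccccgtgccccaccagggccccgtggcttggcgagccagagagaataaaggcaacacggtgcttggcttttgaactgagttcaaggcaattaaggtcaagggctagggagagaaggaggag
Tyrp1: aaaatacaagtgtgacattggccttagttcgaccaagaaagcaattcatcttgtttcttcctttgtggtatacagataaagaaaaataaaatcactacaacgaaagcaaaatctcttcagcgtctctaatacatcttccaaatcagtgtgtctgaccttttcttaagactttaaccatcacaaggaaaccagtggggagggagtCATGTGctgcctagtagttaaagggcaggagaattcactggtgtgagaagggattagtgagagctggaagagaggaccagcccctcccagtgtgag
CATGTG, searched on both strands, was in 14.2% of all windows and in 5 of 10 windows of tested pigment genes. Dct held it at -232 on the minus strand and at -150, and Tyrp1 at -46, counted from the start of the gene. These matches describe letters and do not show binding.

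Cell division genes stood higher with cyclosporin A almost throughout the list. Of 28 tested mitosis genes 26 were above 0 on both arrays (38.6% of all genes were). By an unadjusted p under 0.05, 24 were higher (10.5% of all genes were) and 0 lower. On both arrays 14 passed 1.5-fold (1.01% of all genes did), and 0 passed the adjusted threshold in limma. Cdc20, which activates the complex that ends metaphase, had 5274 and 5158 with cyclosporin A, against 2534 and 1981 with ethanol (2.33-fold, mean log2 ratio 1.22, SE 0.16, limma adjusted p = 0.179). Birc5, the survivin of the chromosomal passenger complex, had 4570 and 5010 with cyclosporin A, against 2192 and 1861 with ethanol (2.37-fold, SE 0.22 on the log2 scale). Pbk, a mitotic kinase, had 648 and 521 with cyclosporin A, against 245 and 212 with ethanol (2.54-fold). No channel overlap was seen in these genes. The spindle kinases Aurka and Plk1 had mean log2 ratios of 0.87 and 0.95, and Ndc80, Hmmr and Cenpe stood at 0.02, 0.04 and 0.05.

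The genes of DNA replication behaved alike, with all 26 tested members above 0 on both arrays (38.6% of all genes were). Their median was 0.73, against 0.74 for the mitosis list and 0.04 for all genes. Ung, the uracil glycosylase of replication forks, had 1237 and 1395 with cyclosporin A, against 604 and 671 with ethanol (2.06-fold, mean log2 ratio 1.04, SE 0.12, limma adjusted p = 0.179). Mcm7, a subunit of the replicative helicase, had 3110 and 3682 with cyclosporin A, against 1923 and 1800 with ethanol (1.82-fold). Both genes' channels were apart. Rrm2, the small subunit of ribonucleotide reductase, and Pcna, the sliding clamp, stood at 0.98 and 0.82, and Cdc45 was the lowest member at 0.18. The exonuclease Exo1 and the histone genes H2ac15 and H2ac13, which were on no list, had mean log2 ratios of 1.31, 1.34 and 1.31; probes of near-identical histone genes may read more than one of them.

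Array 2 of day 4 carried the larger differences: the mitosis median was 0.59 on array 1 and 0.86 on array 2, and the replication median 0.51 and 0.95. Without array 2 the count at an unadjusted p under 0.05 was 8 of 28 mitosis genes and 7 of 26 replication genes. The growth arrest list had a median of -0.10 over 14 genes (above all genes under median centring), with the p53 target Ccng1 at -0.51 and the cell cycle inhibitors Cdkn1a and Cdkn1b at 0.10 and 0.11.

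Promoters of Cdc20 and Aurka are given for the mitosis list, with capitals on CCAAT and TTTGAA, the letters of the CCAAT box and of the element called CHR that cell cycle promoters are known for. Cdc20 lies on the minus strand at chr4:118437294-118437593 and Aurka on the minus strand at chr2:172370521-172370820, build GRCm38.p6 from RefSeq.
Cdc20: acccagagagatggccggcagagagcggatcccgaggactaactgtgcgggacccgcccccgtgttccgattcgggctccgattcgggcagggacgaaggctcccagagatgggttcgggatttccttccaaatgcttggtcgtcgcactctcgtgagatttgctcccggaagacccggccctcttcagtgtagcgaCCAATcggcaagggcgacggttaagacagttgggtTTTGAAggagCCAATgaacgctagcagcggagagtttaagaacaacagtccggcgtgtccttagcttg
Aurka: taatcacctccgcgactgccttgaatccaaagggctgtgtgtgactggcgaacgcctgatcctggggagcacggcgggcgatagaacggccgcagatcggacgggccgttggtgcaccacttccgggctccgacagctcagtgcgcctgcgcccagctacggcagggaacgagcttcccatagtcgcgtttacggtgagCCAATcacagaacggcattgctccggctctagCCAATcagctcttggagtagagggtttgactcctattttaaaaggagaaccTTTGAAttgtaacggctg
Cdc20 held CCAAT at -53 and -8 and TTTGAA at -18, and Aurka held CCAAT at -51 and -19 and TTTGAA at 33. On both strands together, CCAAT was in 37.4% and TTTGAA in 17.9% of all windows, and both were in 6.95%. Of 23 tested mitosis genes with a window, 17 held CCAAT, 16 held TTTGAA and 14 held both. Of 22 replication genes, 12 held CCAAT and 3 TTTGAA. Such matches are descriptions, with no binding measured.

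Ribosomal protein genes stood higher by smaller amounts. Rps18, a protein of the small subunit, had 191670 and 218580 with cyclosporin A, against 118100 and 85101 with ethanol (mean log2 ratio 1.03, SE 0.18, limma adjusted p = 0.179). Rpl13a had 39142 and 34363 with cyclosporin A, against 26113 and 18823 with ethanol (mean log2 ratio 0.73, SE 0.13). Of 26 tested genes 20 were above 0 on both arrays (38.6% of all genes were), and the median was 0.41. By an unadjusted p under 0.05, 16 were higher (10.5% of all genes were) and 0 lower. Rpl4 and Rpl3 stood at -0.41 and -0.16. A further probe of Rps2 stood at -0.05, against 0.68 for the brighter one, and these genes have many near-identical copies, so single values are uncertain. The count of 16 was 9 without array 1 of day 4.

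**Figure D3:**
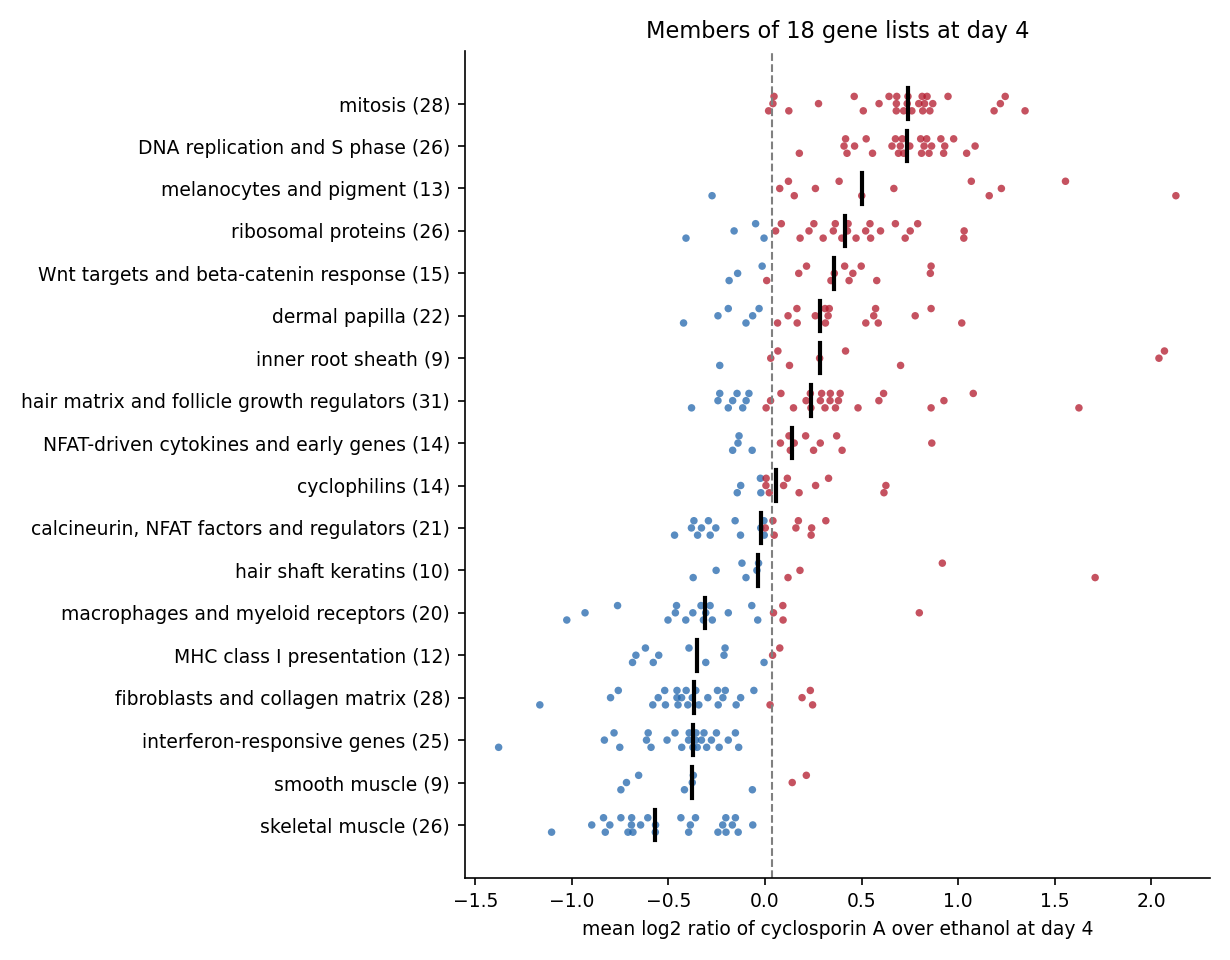
Mean log2 ratio of cyclosporin A over ethanol at day 4 for the tested members of 18 gene lists (number tested in parentheses), red above 0 and blue below, with list medians as black bars and the all-gene median of 0.04 as a dashed line. The mitosis and replication lists have medians of 0.74 and 0.73, the interferon-responsive list -0.37 and the skeletal muscle list -0.57, the last above all genes under median centring.

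The drug's own partners stood near 0, except under median centring. Ppia, the main cytosolic cyclophilin, had 4735 and 4264 with cyclosporin A, against 5359 and 3882 with ethanol, and its channels overlapped. Ppib and Ppif, the cyclophilins of the secretory pathway and mitochondria, stood at 0.12 and 0.01. The cyclophilin list had a median of 0.06 over 14 genes. Of these, 2 were higher at an unadjusted p under 0.05, against 10.5% of all genes. They were Ppih and Ppil1 of the splicing machinery, at 0.62 and 0.63. Under median centring, where the median of all genes was 0.27, 12 of the 14 were higher by that p. The list then stood 0.36 above all genes.

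Calcineurin subunits and NFAT factors showed small values in both directions. The catalytic subunits Ppp3ca and Ppp3cb stood at -0.28 and 0.05, and the regulatory subunit Ppp3r1 at -0.02. A dimmer probe of Ppp3cb stood at -0.37, and those of Ppp3r1 at 0.23 and 0.01. Nfatc1 had log2 ratios of -0.74 and 0.49 on the 2 arrays, and Nfatc2 a mean of -0.15. Dimmer probes of Nfatc2 stood at -0.31 and 0.22. Rcan1, a calcineurin inhibitor whose transcription NFAT drives, had 1397 and 1767 with cyclosporin A, against 1646 and 2366 with ethanol (mean log2 ratio -0.33, SE 0.11, limma adjusted p = 0.258). Its channels overlapped across the arrays, but its log2 ratio was -0.24 on array 1 and -0.42 on array 2. Of 21 tested genes of this list 1 was higher and 4 lower by an unadjusted p under 0.05, against 10.5% and 4.43% of all genes. The median was -0.02. The count of 4 was 0 without array 2 of day 4.

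Cytokine and early genes downstream of NFAT were mostly dim. Of 20 listed genes 14 were tested, and the ethanol channel was well above background on both arrays for 6 of these. Il2, the T cell growth factor, Il4 and Ifng stood at 0.15, 0.29 and -0.07. Csf2, the growth factor GM-CSF, had 167 and 185 with cyclosporin A, against 97.6 and 95.8 with ethanol, and was at least 1.82-fold higher (mean log2 ratio 0.86, SE 0.12, limma adjusted p = 0.179). The immediate early factor Egr1 had 2944 and 2971 with cyclosporin A, against 1550 and 1904 with ethanol (mean log2 ratio 0.78, SE 0.30, limma adjusted p = 0.302). The channels of Egr1 did not overlap, and Csf2 was not well above background on either ethanol array. The early gene list as a whole had a median of 0.11 over 24 genes.

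T cell genes had a median of 0.07 over 15 tested genes. By an unadjusted p under 0.05, 1 was higher and 1 lower, against 10.5% and 4.43% of all genes. The receptor chains Cd3d and Cd3e both stood at 0.21, and Cd4 at 0.20. Ptprc, the CD45 phosphatase of all leukocytes, had 2685 and 3023 with cyclosporin A, against 3822 and 3979 with ethanol (mean log2 ratio -0.45, SE 0.12, limma adjusted p = 0.209). MHC class II and Langerhans cell genes had a median of 0.03 over 16 genes, with Cd207, the langerin of Langerhans cells, at 0.55 and Cd74, the invariant chain, at -0.38.

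Single inflammatory mediators and growth factors were higher with cyclosporin A. Il1b, an inflammatory cytokine, had 418 and 461 with cyclosporin A, against 268 and 207 with ethanol (mean log2 ratio 0.90, SE 0.17, limma adjusted p = 0.179). Areg, a growth factor for keratinocytes, had 210 and 191 with cyclosporin A, against 117 on both arrays with ethanol (mean log2 ratio 0.78, SE 0.15). Ccl19, a chemokine that draws T cells and dendritic cells, had 10907 and 11541 with cyclosporin A, against 6729 and 6641 with ethanol (mean log2 ratio 0.75, SE 0.19, limma adjusted p = 0.199). Each of these had its channels apart, and none passed the test. The chemokine list had a median of 0.04 over 21 tested genes. By an unadjusted p under 0.05, 2 chemokine genes were higher and 2 lower, against 10.5% and 4.43% of all genes. The list of alarmins had a median of 0.20 over 20 genes, and S100a8 and S100a9 stood at -0.22 and 0.01, the second with -0.73 and 0.75 on the 2 arrays.

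Genes that respond to interferon stood lower with cyclosporin A, also relative to all genes under median centring (-0.21). Cxcl9, a chemokine induced by interferon-gamma, had 194 and 132 with cyclosporin A, against 471 and 367 with ethanol (mean log2 ratio -1.38, SE 0.16, limma adjusted p = 0.179). Iigp1, an interferon-induced GTPase, had 1913 and 1580 with cyclosporin A, against 3406 and 2812 with ethanol (mean log2 ratio -0.83, SE 0.25). The channels of both were apart, and neither passed the test. Igtp, of the same GTPase family, had 2571 and 2203 with cyclosporin A, against 4480 and 3586 with ethanol (mean log2 ratio -0.75, SE 0.24, limma adjusted p = 0.243).

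All 25 tested interferon-responsive genes had a mean below 0, 18 were below 0 on both arrays (27.5% of all genes were), 7 were lower at an unadjusted p under 0.05 (4.43% of all genes were), and 4 passed 1.5-fold on both arrays (0.33% of all genes did). The list median was -0.37, with -0.54 on array 1 and -0.30 on array 2. Single members differed between the arrays: Ifit1, Ifit3 and Oasl1 were -0.81, -0.80 and -0.79 on array 1 and 0.18, 0.09 and 0.13 on array 2. The factors Irf1 and Irf9 were below 0 on both, with means of -0.47 and -0.35. The count of 7 was 1 without array 1 and 2 without array 2 of day 4, and 13 without either day 2 array.

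The promoter of Igtp is printed for this list, on the plus strand at chr11:58199306-58199605 (build GRCm38.p6, RefSeq), with capitals on GAAA, any 2 bases and GAAA again, the letters of an interferon-stimulated element.
Igtp: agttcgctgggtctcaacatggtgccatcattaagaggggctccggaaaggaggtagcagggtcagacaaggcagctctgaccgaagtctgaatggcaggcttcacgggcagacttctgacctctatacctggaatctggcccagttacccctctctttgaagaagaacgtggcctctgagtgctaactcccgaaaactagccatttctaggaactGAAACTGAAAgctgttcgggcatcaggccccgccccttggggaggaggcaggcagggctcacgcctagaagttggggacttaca
The match lay at -34. Of 21 interferon-responsive genes with a window 13 held these letters on either strand, or 61.9%, against 3.44% of all windows, which is a description of a list of known interferon genes and not a result of the arrays.

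Class I antigen presentation genes stood lower except under median centring, with a median of -0.35. By an unadjusted p under 0.05, 6 of 12 tested genes were lower (4.43% of all genes were) and 0 higher. H2-Q7, a non-classical class I gene, had 31504 and 25312 with cyclosporin A, against 45020 and 45851 with ethanol (mean log2 ratio -0.69, SE 0.15, limma adjusted p = 0.179). Tap1, a subunit of the peptide transporter, had 445 and 389 with cyclosporin A, against 637 and 583 with ethanol (mean log2 ratio -0.55, SE 0.13). H2-D1, a classical class I gene, stood at -0.67, and B2m, the shared light chain, at 0.08. Class I genes are near-identical to each other, so probes may read more than one of them.

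Macrophage genes, lower than all genes except under median centring, had a median of -0.31 over 20 tested genes. Of these, 14 were below 0 on both arrays (27.5% of all genes were). At an unadjusted p under 0.05, 0 were lower (4.43% of all genes were). The complement genes C1qa and C1qb stood at -0.93 and -1.03, with C1qa at 6847 and 4008 with cyclosporin A, against 10991 and 9090 with ethanol (SE 0.50, limma adjusted p = 0.438). The receptors Adgre1 and Fcgr1 stood at -0.27 and -0.37, while Marco was -0.12 on array 1 and 1.72 on array 2. The summed intensity of the 20 markers was 242584 and 202101 with cyclosporin A, against 268268 and 319579 with ethanol, with no overlap and no member at background on both arrays of a channel, and their part in the values of the interferon-responsive genes was not tested. Without either day 2 array, 7 macrophage genes were lower at an unadjusted p under 0.05.

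Skeletal muscle genes had the lowest median of all 51 lists, -0.57 (above all genes under median centring). Of 26 tested genes 18 were below 0 on both arrays (27.5% of all genes were). By an unadjusted p under 0.05, 14 were lower (4.43% of all genes were) and 0 higher. Des, the intermediate filament of muscle, had 2722 and 3204 with cyclosporin A, against 4150 and 5914 with ethanol (mean log2 ratio -0.75, SE 0.13, limma adjusted p = 0.179). Myl1, a fast light chain of myosin, had 63067 and 62862 with cyclosporin A, against 86549 and 100510 with ethanol (mean log2 ratio -0.57, SE 0.12). Both genes' channels were apart. The spread between the arrays was wide in other members: the calcium store protein Casq1 had 1550 and 1629 with cyclosporin A, against 2092 and 5590 with ethanol. The list median was -0.31 on array 1 and -0.78 on array 2, and the count of 14 was 4 without array 2 of day 4. Summed over the 25 genes measured on both arrays, their intensity was 774391 and 880596 with cyclosporin A, against 870812 and 1368877 with ethanol. The sums overlapped across the arrays and were lower with cyclosporin A on each array. Each of the 26 was well above background in both channels of at least 1 array, and their part in other results was not tested.

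Smooth muscle genes had a median of -0.38 over 9 tested genes (level with all genes under median centring). By an unadjusted p under 0.05, 4 were lower (4.43% of all genes were) and 0 higher. The 4 included Des and the myosin kinase Mylk, which had 8809 and 6947 with cyclosporin A, against 15425 and 9828 with ethanol. The count of 4 was 2 without array 1 of day 4. The brightest of 3 probes of Acta2, the smooth muscle actin, stood at -0.72 and the others at 0.29 and -0.02.

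Fibroblast and collagen genes of the dermal matrix stood lower, except relative to all genes under median centring. Matrix proteases and remodelling genes had no common direction, with a median of 0.06 over 22 tested genes. Of these, 10 were above 0 and 5 below 0 on both arrays, against 38.6% and 27.5% of all genes. By an unadjusted p under 0.05, 2 were higher and 2 lower, against 10.5% and 4.43% of all genes. The lowest member of that list was Postn, the matricellular protein periostin. It had 12227 and 13283 with cyclosporin A, against 22044 and 22470 with ethanol (mean log2 ratio -0.80, SE 0.11, limma adjusted p = 0.179). Mmp2, a gelatinase, had 3702 and 3327 with cyclosporin A, against 5810 and 5350 with ethanol (mean log2 ratio -0.67, SE 0.12, limma adjusted p = 0.179). The channels were apart in both. Col1a1, the main collagen of dermis, had 75444 and 81799 with cyclosporin A, against 112040 and 102840 with ethanol (mean log2 ratio -0.45). Dimmer probes of Col1a1 stood at -0.68 and 0.04. Tnxb, a tenascin, stood at -1.17 by its brighter probe and at -0.01 by the other. Of 28 tested fibroblast and collagen genes 19 were below 0 on both arrays (27.5% of all genes were). By an unadjusted p under 0.05, 5 were lower (4.43% of all genes were) and 0 higher. The median was -0.37 (level with all genes under median centring), and Dcn and Lum stood at 0.23 and 0.25. The count of 5 was 1 without array 2 of day 4 and 12 without either day 2 array.

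The ratios depend on how the arrays were centred. Median centring in place of loess moved the median of all genes at day 4 to 0.27, against 0.04. Relative to all genes, the skeletal muscle list then stood at 0.09, the macrophage list at 0.19, the class I list at 0.14, the fibroblast list at 0.01 and the smooth muscle list at 0.00073, so these lists were no longer below the rest. The growth arrest, calcineurin, clock and glucocorticoid-responsive lists stood at 0.20, 0.11, 0.12 and 0.24 and so crossed over as well. The NFAT-driven cytokines and T cell genes crossed the other way, to -0.28 and -0.23. Under each of the 16 alternative settings, the mitosis, replication, pigment, Wnt target, dermal papilla, inner root sheath and ribosomal lists stayed above all genes. The interferon-responsive list stayed below them under each. Leaving out an array of day 2 or day 7, using days 2 and 4 only and the trended variance left the day 4 ratios unchanged. Those settings could not move a list, and the replicate block hardly could.

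Single genes outside the follicle and immune lists made up much of the lower end. Pf4, the platelet chemokine, had 901 and 847 with cyclosporin A, against 10553 and 6098 with ethanol, 9.18-fold lower (mean log2 ratio -3.20, SE 0.92, limma adjusted p = 0.218). Its log2 ratios at day 2 were far apart, at 4.77 and 0.17. Tnfrsf11b, the decoy receptor osteoprotegerin, had 370 and 358 with cyclosporin A, against 830 and 791 with ethanol (2.23-fold lower), and C1qtnf3, a secreted C1q-related protein, had 293 and 307 against 792 and 839 (2.72-fold lower). The channels of all 3 genes were apart, but each was picked for lying past 1.5-fold lower on both arrays, so this adds no support. Txnip, an inhibitor of thioredoxin that rises with glucose, had 5026 and 5154 with cyclosporin A, against 11833 and 9368 with ethanol (2.07-fold lower).

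Clock genes differed in direction from one another, with a median of -0.08 over 18 tested genes (above all genes under median centring). Per1, a repressor of the clock, had 1049 and 1635 with cyclosporin A, against 2536 and 3130 with ethanol (mean log2 ratio -1.11, SE 0.25, limma adjusted p = 0.179), and Per3 stood at -0.83. Per2, Cry1 and Nfil3 stood at 0.30, 0.39 and 0.42. The glucocorticoid-responsive list had a median of -0.20 over 14 tested genes (above all genes under median centring). By an unadjusted p under 0.05, 2 were higher and 3 lower, against 10.5% and 4.43% of all genes. Tsc22d3, Klf9 and Errfi1 stood at -0.78, -0.57 and -0.67, and the metallothionein Mt1 at 0.71. The metallothionein Mt2 had 35922 and 44811 with cyclosporin A, against 26015 and 9191 with ethanol. A single array decided the value of Wnt4, a Wnt ligand, which had 1054 and 1071 with cyclosporin A, against 912 and 46.0 with ethanol, and it was the gene under 0.05 without array 1 of day 4 (log2 ratio 4.54, limma adjusted p = 0.0159).

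Against the earlier day, no gene passed the test of a different ratio at day 4. The day 4 minus day 2 difference was under an adjusted p of 0.05 for 0 genes in limma in either direction, and at an unadjusted p under 0.05 for 292 genes higher at day 4 (1.28%) and 218 lower (0.958%). Krt71 had the smallest p, with mean log2 ratios of 2.04 at day 4 and 0.27 at day 2 (limma unadjusted p = 4.5e-05, adjusted p = 0.999). Ccl19 was at 0.75 at day 4 and -0.64 at day 2, Gjb2 at 0.80 at day 4 and -0.02 at day 2, and Csf2 at 0.86 at day 4 and 0.03 at day 2. Of the pigment genes, Pmel was at 2.13 at day 4 and 1.39 at day 2, and Dct at 1.56 at day 4 and 1.10 at day 2. At the other end, Fstl1, a secreted follistatin-like protein, was at -0.63 at day 4 and 0.98 at day 2. On the day 2 arrays the interferon-responsive list had medians of 1.02 and -0.36, so the arrays of that day stood on opposite sides of 0.

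**Figure D4:**
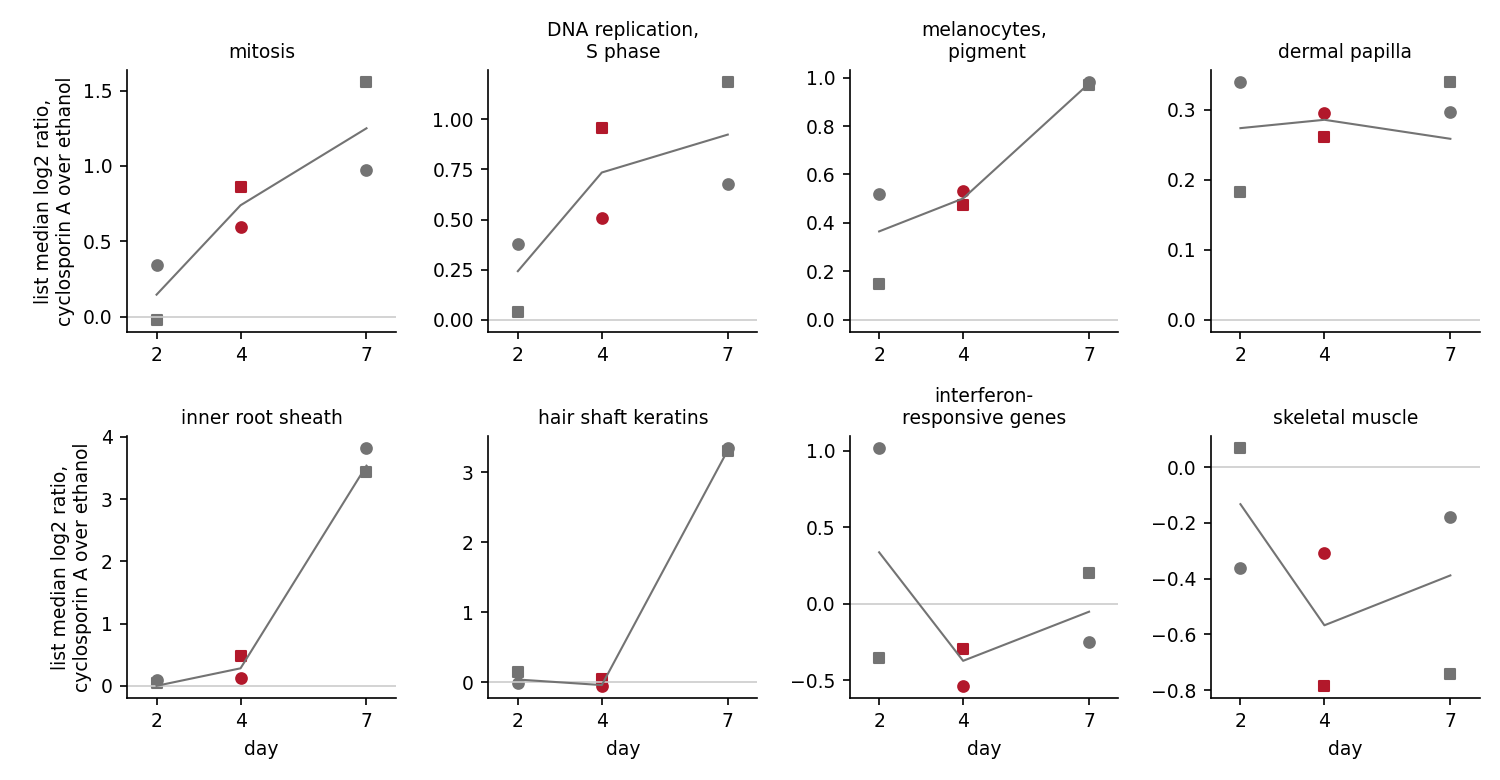
Median log2 ratio of cyclosporin A over ethanol of 8 gene lists on each array at days 2, 4 and 7 (circles array 1, squares array 2, day 4 in red, a line through the medians of the day means; vertical scales differ between panels). The inner root sheath list has medians of 0.00, 0.28 and 3.54, and the mitosis list 0.15, 0.74 and 1.25.

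Keratin genes of the sheath and shaft had higher ratios at day 7 than at day 4. The day 7 minus day 4 difference passed the test for 46 genes higher at day 7 (0.202%) and 0 lower, with 506 (2.22%) and 511 (2.25%) at an unadjusted p under 0.05. Krt71 was at 6.18 at day 7 and 2.04 at day 4, a difference of 4.13 (SE 0.19, limma adjusted p = 0.00099). Krt27 was at 5.72 at day 7 and 0.70 at day 4, Krt33a at 6.02 at day 7 and 0.92 at day 4, and Padi3 at 4.42 at day 7 and 0.03 at day 4, all under an adjusted p of 0.05. Krt33a was at background on both ethanol arrays of day 4. Shaft genes such as Krt87 and Krt31 were at background in both channels at day 4 and were tested through their signal on another day, and with probes well above background in Cy5 and Cy3 on every array the count of 46 was 8. The differences of Pmel (0.61), Cdc20 (0.31) and Ung (0.04) had limma adjusted p of 0.934 or above. For scale, both arrays passed 1.5-fold for 0.123% of genes higher and 0.141% lower at day 2, and for 2.67% and 1.29% at day 7, when 534 genes (2.35%) rose and 146 (0.642%) fell by limma. Days 2 and 4 were on 1 slide and day 7 on another, so slide and day 7 cannot be told apart. The count of 46 was 15 without array 1 and 17 without array 2 of day 4.

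**Figure D5:**
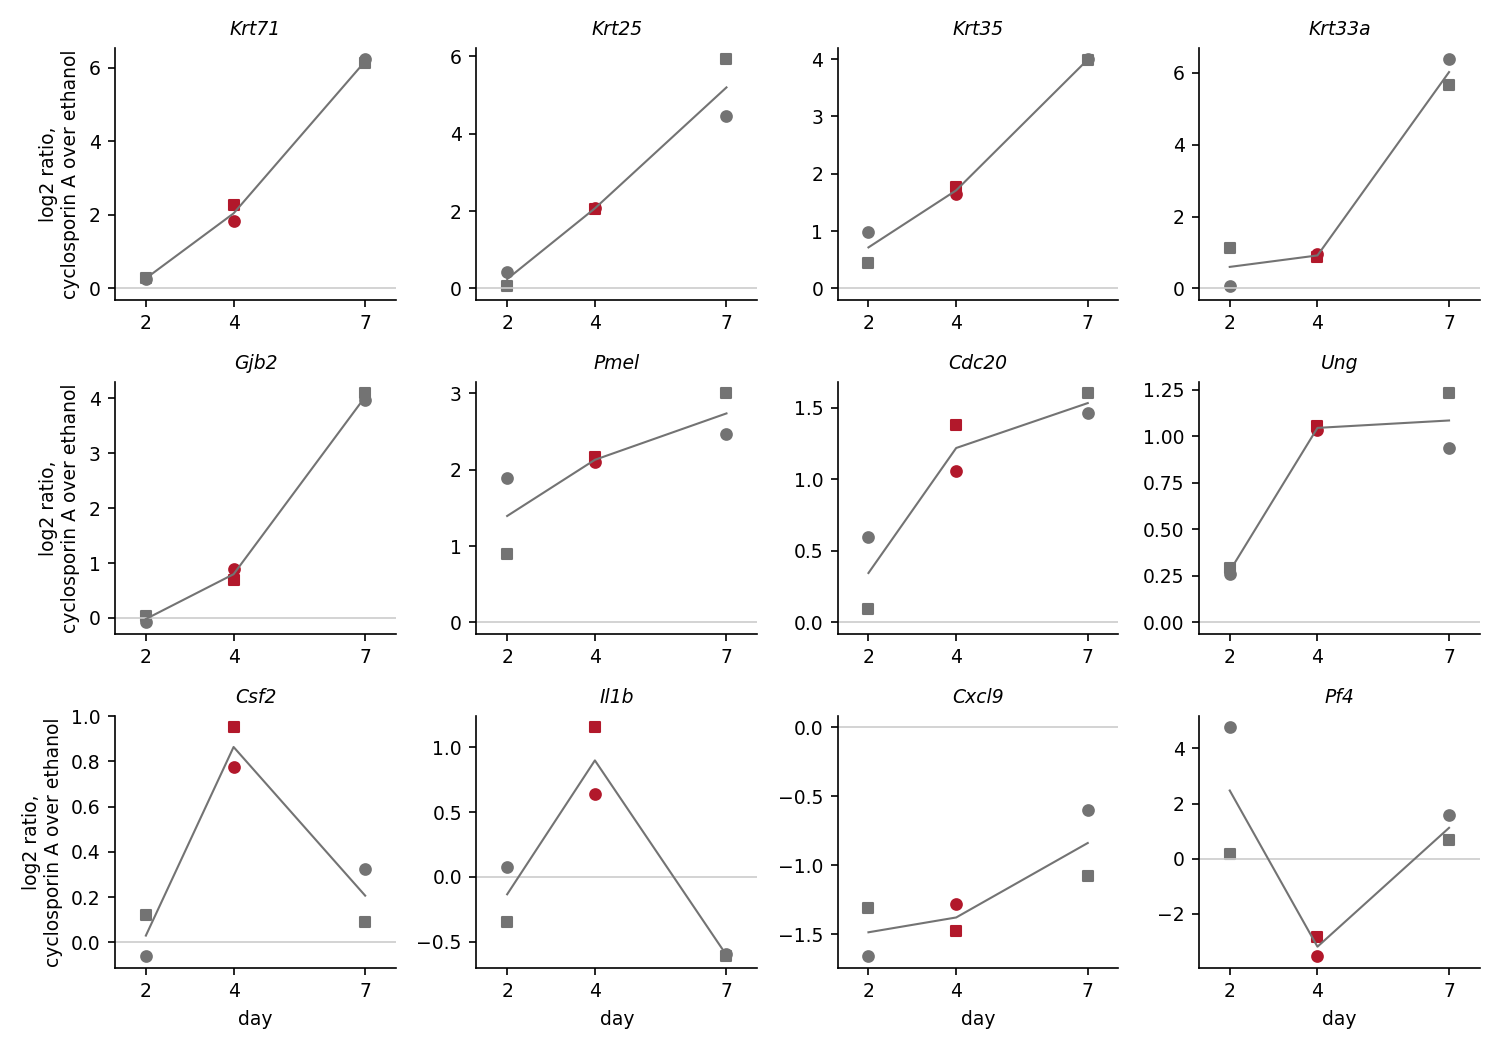
Log2 ratio of cyclosporin A over ethanol of 12 genes on each array at days 2, 4 and 7 (circles array 1, squares array 2, day 4 in red, a line through the day means; vertical scales differ between panels). Krt71 has means of 0.27, 2.04 and 6.18 and Cdc20 0.35, 1.22 and 1.53, while Il1b stands at -0.13, 0.90 and -0.60.

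Single genes stood highest at day 4 itself. Il1b was at -0.13 at day 2, 0.90 at day 4 and -0.60 at day 7, and its day 7 minus day 4 difference of -1.50 had a limma adjusted p of 0.141. Csf2 was at 0.03, 0.86 and 0.21 at the 3 days. Neither difference passed the test, so a peak at day 4 is not shown.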

How the data were processed

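Agilent mouse arrays with 2 colours measured back skin RNA, with cyclosporin A in Cy5 and ethanol in Cy3. The deposited scanner files give the spot intensity of each channel and its background, and per the submitters' processing notes the software was Agilent Feature Extraction 9.1. A deposited table of values gives log10 ratios, Cy5 relative to Cy3, and the largest difference from the ratio column of the scanner files was 0. A genome build is not given in the sources used here.

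Of 45018 spots 1639 control spots were left out of the tests. Median signals were corrected with normexp (offset 50) and loess was fitted within each array in limma 3.58.1 (R 4.3.3, with the package data.table, version 1.17.8). Single-channel intensities were then put on a common scale by Aquantile. Outlier spots were dropped (24 and 15 on the day 4 arrays), and the spots of a probe were averaged to 41174 probes. The filter kept 27938 probes. Each array of some day had to have the probe well above background in Cy5 or Cy3, and the channel could differ between its arrays. A probe could so be kept through Cy5 alone, the channel in which more probes were well above background. Symbols came from a RefSeq gene list by accession (22951 probes) or synonym (67), 18156 probes had none, and the brightest probe stood for a gene. Of 22751 genes tested 13473 had a symbol, and 27 were measured on 1 day 4 array.

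One mean log2 ratio per day was fitted to all 6 arrays with limma's moderated test (3 residual degrees of freedom, prior SD 0.199), and genes with a Benjamini-Hochberg adjusted p under 0.05 passed. The fit was tested on simulated data. Named genes were, in each direction, the 15 with the largest mean ratio and both arrays past 1.5-fold, list members with the smallest p, the drug partners, and the genes with the smallest p for each difference between days. The members, the lists and the tests were chosen with earlier results of these data known. Alternatives were other normalizations, signals, filters, probe rules and variance models, a replicate block, and leaving out each array. Promoter letters were searched on both strands in 32851 RefSeq windows.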

Additional observations from a re-analysis of the deposited data

Results flagged for a closer look

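The ratio of cyclosporin A over ethanol differed between day 7 and day 4 by a test of the difference itself for hair genes. The day 7 minus day 4 difference of log2 ratios was 5.10 for Krt33a, 5.02 for Krt27, 4.78 for Prr9, 4.40 for Fbp1, 4.39 for Padi3, 4.35 for Krt34 and 4.13 for Krt71. It was 3.74 for Krt86, 3.74 for Krtap4-16, 3.65 for Krtap5-4, 3.25 for S100a3, 3.23 for Gjb2, 3.10 for Krt87 and 2.28 for Krt35, with limma adjusted p between 0.00099 and 0.0131 for these 14 genes. At day 4 Krt87 was not well above background in either channel, Krt86 was so on 1 cyclosporin A array, and Krt33a, Krt34 and Krtap4-16 were at background on both ethanol arrays. Their differences therefore rest on dim day 4 values, and Krt86 and Krt87 were tested only through their signal on another day. At day 4 Prr9, Krt86 and Krt87 stood at -0.03, -0.12 and -0.10. Day 7 lay on a slide of its own.

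The medians of 8 gene lists had both arrays of day 4 on one side of 0 and both arrays of another day on the opposite side, and these differences were not tested. Against day 2, the calcineurin list stood at -0.022 at day 4, and at 0.06 and 0.04 on the day 2 arrays. The NFAT-driven cytokines stood at 0.14 at day 4, and at -0.06 and -0.02 on the day 2 arrays. Against day 7, the day 4 medians were 0.11 for immediate early genes, 0.068 for T cells, 0.20 for alarmins, 0.21 for activated keratinocytes, 0.056 for basal keratinocytes and 0.14 for Schwann cells. The day 7 medians of these lists were -0.05, -0.23, -0.15, -0.19, -0.21 and 0.01 in the same order; the last is the median of the day means, and the medians of the 2 day 7 arrays were -0.06 and -0.05.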

How the results depend on the processing

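Krt71 was the only gene called higher at day 4, and it was also the only one with the mean of all probes and with a trended, robust variance. With median centring 5260 genes were called higher and 324 lower. The count of higher genes was 0 with scale normalization between arrays, with processed signals, with probes well above background everywhere, with no filter on dim probes, with the arrays of days 2 and 4 only and with the replicate block. With the deposited ratios the 1 higher gene was Krt25 (5.08, limma adjusted p = 0.0397). Leaving out 1 array gave 0 to 4 higher genes, namely 4 without either array of day 2 and 0 without array 2 of day 4 or either array of day 7. The mean log2 ratio of Krt71 was 2.07 with scale normalization, 3.08 with processed signals, 3.08 with deposited ratios, 2.04 with no filter, with days 2 and 4 only and with the replicate block, and 1.83 to 2.26 with 1 array left out; its limma adjusted p lay between 0.0039 and 0.700. The day 4 minus day 2 difference had 0 lower genes, and 0 to 1 with 1 array left out. The day 7 minus day 4 difference had 46 higher genes, 8 with probes well above background everywhere and 15 to 69 with 1 array left out; 0 genes were lower, against 2 with processed signals, 4 with deposited ratios, 1 with a trended variance, 1 with the replicate block and 0 to 9 with 1 array left out. The causes were not tested. Deviations of same-numbered arrays had correlations of 0.0071, -0.28 and -0.02. These values cannot say whether the numbers pair the samples, as no animals are named. The replicate block gave 0 higher genes at day 4. Dim genes are limited by background in the ethanol channel. Leaving out arrays of days 2 and 4 for the list counts was chosen after seeing the data.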

Other observations

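The cornified envelope list, which covers the outer layers of the epidermis, had a median of 0.20 over 27 tested genes. By an unadjusted p under 0.05, 2 were higher and 0 lower (10.5% of all genes were higher). On both arrays 17 were above 0 (38.6% of all genes were). Krtdap, a differentiation protein, had 12410 and 11992 with cyclosporin A, against 9155 and 8442 with ethanol (mean log2 ratio 0.47, SE 0.19, limma adjusted p = 0.320). Krt10, the keratin of the suprabasal layers, had 136020 and 159970 with cyclosporin A, against 95875 and 111730 with ethanol, at 0.51 by its brighter probe and at -0.64 by the other.

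Fat cell genes had a median of 0.02 over 22 tested genes, with 0.30 on array 1 and -0.33 on array 2, so the arrays stood on opposite sides of 0. Fasn, the fatty acid synthase, had 85120 and 117740 with cyclosporin A, against 49225 and 89606 with ethanol. Its channels overlapped across the arrays, but its log2 ratio was 0.79 on array 1 and 0.39 on array 2. The glucose transporter Slc2a1 stood at 0.73 and the chaperonin Hspe1 at 0.69, with intensities of Hspe1 of 5106 and 4393 with cyclosporin A, against 3433 and 2503 with ethanol (limma adjusted p = 0.179). Respiratory chain genes had a median of 0.14 over 30 tested genes. By an unadjusted p under 0.05, 1 was higher and 1 lower, against 10.5% and 4.43% of all genes. Pck1, an enzyme of glucose and glyceride synthesis in fat, had 3053 and 2289 with cyclosporin A, against 5800 and 6551 with ethanol (mean log2 ratio -1.22, SE 0.34, limma adjusted p = 0.212). The channels of Hspe1 and of Pck1 did not overlap, and neither gene passed the test.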
